A study of Homo sapiens with 3 samples.

Results

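The genes described here are 34 neuroendocrine and neuronal genes, chosen by name out of 43317 gene names on the array, and 19 of them are among the 17061 genes that were bright enough to be tested. They were measured in 22RV1, a prostate cancer cell line that expresses SPINK1, a secreted trypsin inhibitor. In 22RV1-shSPINK1 cells, a lentiviral hairpin against SPINK1 was stably expressed under puromycin selection, and the control was 22RV1-shSCRM, the same line with a scrambled hairpin. RNA of cells with hairpin 1, 2 or 3 was labelled with Cy5, and RNA of the control with Cy3, and each pair was hybridized to 1 of 3 arrays of 60-base probes. Neither the labels nor the methods say whether a line came from a single clone, or whether the control RNA on the 3 arrays came from separate cultures. The dyes were never swapped, so a dye effect on a gene and an effect of the hairpins cannot be told apart.

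Neuroendocrine cells of the prostate are scarce epithelial cells that store peptides and amines in dense-core granules and release them by regulated exocytosis, with much of the machinery that neurons use at synapses. Chromogranins and secretogranins fill the granules, prohormone convertases cut the stored peptides, and synaptic vesicle proteins and SNAREs bring vesicles to the membrane. In neuroendocrine prostate cancer (NEPC), which can arise after androgen deprivation, tumor cells express these genes together with neuronal transcription factors and splicing regulators, and pathologists stain for synaptophysin (SYP), chromogranin A (CHGA), neuron-specific enolase (ENO2) and NCAM1. The repressor REST keeps many of these genes silent in epithelial cells by binding a DNA element called RE-1. The comparison asks whether the transcripts of such genes differed once SPINK1 was silenced.

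The probes behind the main readouts are shown so that each value can be tied to a stretch of transcript. For the SYP, ENO2 and MAP2 probes and the bright CELF3 probe the first 30 of 60 bases are printed, and for the others the whole probe. Bases run 5′ to 3′ in the sense of the transcript, all in lower case since no base of a probe is singled out. Coordinates refer to hg19, as the array's own annotation gives them. Whether a probe lies in a coding exon or an untranslated part is not given by that annotation.
SYP, chrX:49044557-49044616, minus strand: cactcccgtgatgaaacagctaggttaata
ENO2, chr12:7032482-7032541, plus strand: ttcattcatcccattaatcatttccccata
MAP2, chr2:210598712-210598771, plus strand: gttaccatagaaaggcatttcttcaatggc
CELF3, bright probe, chr1:151675027-151675086, minus strand: tggggaggggtcaaggggtttattacctga
CELF3, dim probe, chr1:151681749-151681808, minus strand: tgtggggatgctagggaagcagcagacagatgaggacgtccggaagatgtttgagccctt
CHGB, chr20:5904307-5904366, plus strand: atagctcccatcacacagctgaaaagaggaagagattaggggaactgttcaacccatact
DLL3, chr19:39998477-39998536, plus strand: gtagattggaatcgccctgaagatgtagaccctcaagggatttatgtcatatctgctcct
NCAM1, dim probe, chr11:113103444-113103503, plus strand: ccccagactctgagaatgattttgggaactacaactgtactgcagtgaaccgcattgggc

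Values are log2 ratios of Cy5 over Cy3, so a negative value is a lower level in 22RV1-shSPINK1 cells. They were computed after background correction with an offset of 50, which draws dim genes toward 0, and after loess normalization within each array. A mean over the 3 arrays was tested against 0 with limma across all 17061 genes with Benjamini-Hochberg adjustment, and was called at an adjusted p under 0.05. SPINK1 itself gave -3.71, -3.65 and -3.89 on the arrays of hairpins 1, 2 and 3, which averages -3.75 ± 0.12 (SD, n = 3 arrays; limma, adjusted p = 6.06e-07). That is 7.42% of the level in 22RV1-shSCRM cells. Of gene spots, 41.3% to 46.8% were well above background in Cy5 and 38.8% to 42.6% in Cy3, with the highest share on the array of hairpin 1, and no spot was saturated. The luminal prostate markers KLK2, KLK3, HOXB13, FOLH1, KRT8, KRT18, EPCAM and CDH1 were measured, and the basal markers KRT5, KRT14 and TP63 were not well above background. Among these luminal markers KRT8, EPCAM and CDH1 were lower and KRT18 was higher at an adjusted p under 0.05 by limma, and their part in the results below was not tested. RNA from a whole culture was measured, so fewer neuroendocrine cells and less RNA per cell cannot be told apart.

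A limited set of the neuroendocrine and neuronal genes could be read in these cells. Of the 34 genes, 19 were measured, that is, at least 1 probe was well above the local background in Cy5 on every array or in Cy3 on every array. For each of the 19 the probe in fact passed in both dyes on each array. The other 15 were dim, with 18 probes between them. The dim probes had a Cy5 brightness of 13.2 to 27 (median 17.6) over a local background of 14 to 16, and a Cy3 brightness of 24.3 to 43.9 (median 30) over a local background of 18 to 22.5. Of the 15 dim genes, 9 were well above background on no array in either dye. No ratio is reported for a dim gene, since neither group was well above background on all 3 arrays.

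**Figure D1:**
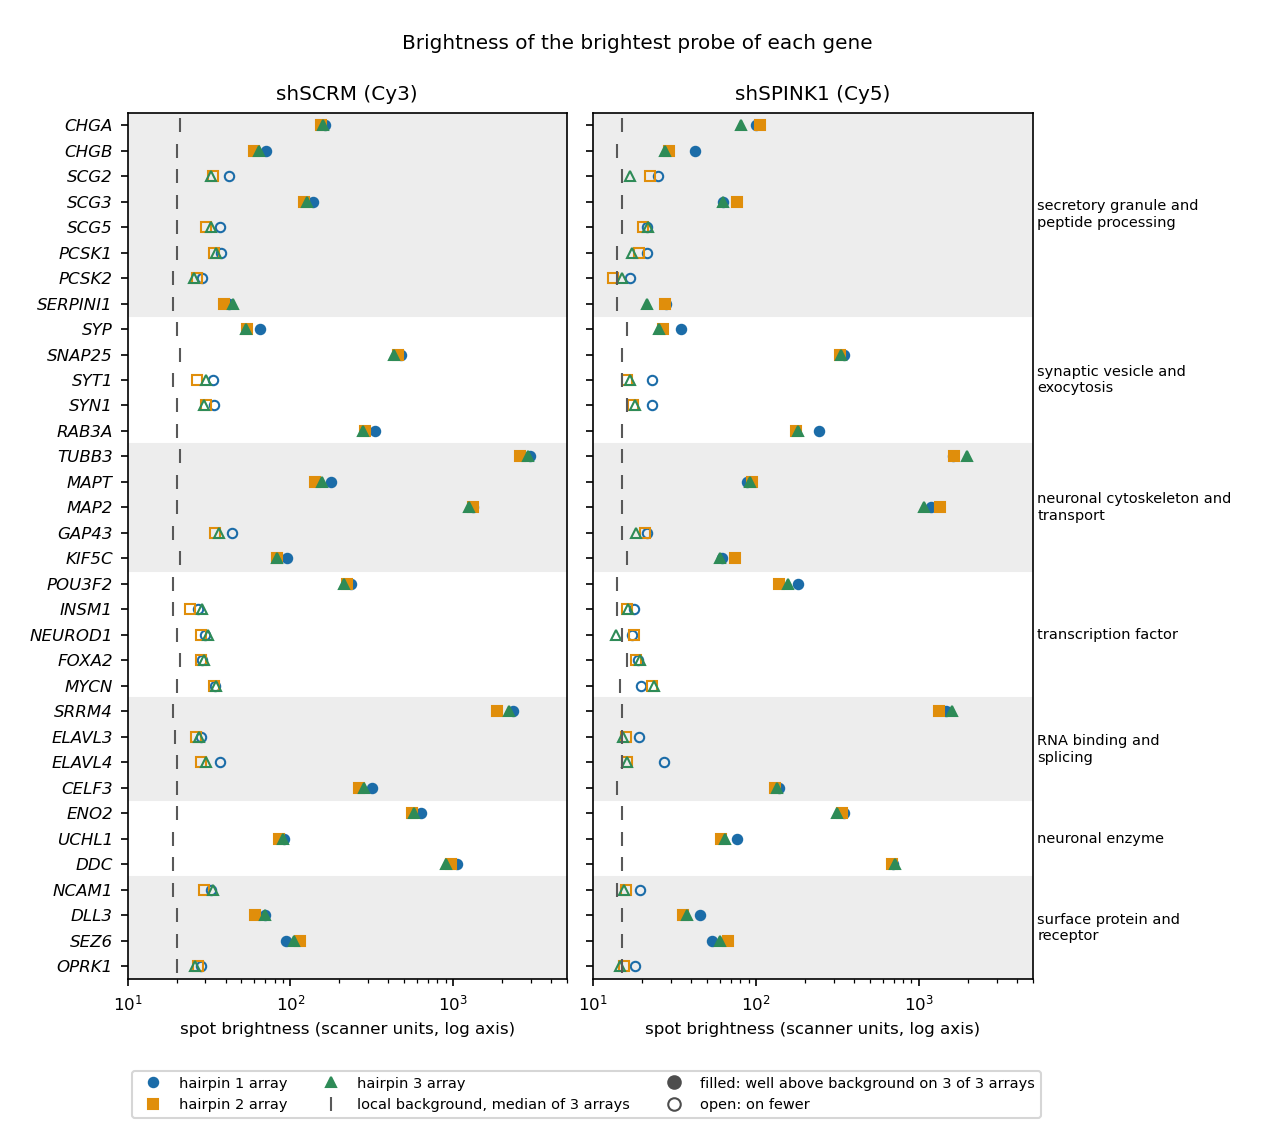
Brightness of the brightest probe of each of the 34 genes in Cy3 (22RV1-shSCRM, left) and Cy5 (22RV1-shSPINK1, right), in scanner units on a log axis, with 1 point per array, filled where the probe was well above background on all 3 arrays in that dye. Open points of the 15 dim genes lie close to the grey ticks that mark the local background, and raw brightness is not comparable between dyes.

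By role, the dim genes were spread unevenly. Of 8 granule and peptide-processing genes 4 were measured, and of 5 synaptic vesicle genes 3 were. The neuronal cytoskeleton was read in 4 of 5 genes and the neuronal enzymes in 3 of 3. Of 5 transcription factors only POU3F2 was measured, and 2 of 4 RNA-binding proteins and 2 of 4 surface proteins were. Among the NEPC markers that pathologists use, SYP, CHGA and ENO2 were measured, and none of the 3 probes of NCAM1 was well above background on any array.

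Across the 19 measured genes, silencing of SPINK1 came with small differences in both directions. CELF3 and ENO2 were lower and MAP2 was higher, and 16 genes did not pass the test. The 2 lower genes made up 10.5% of the 19, where 8.70% of all genes tested were called lower, and the 1 higher gene made up 5.26%, where 4.77% of all genes were called higher. At an unadjusted p under 0.05, 5 were lower (26.3%, beside 18.4% of all genes) and 2 higher (10.5%, beside 11.3%). With limma no member passed both the adjusted p and a mean log2 ratio beyond 0.5 (0 of 19, where 0.715% of all genes did), and none passed that size with an unadjusted p under 0.05 either. The mean log2 ratios ran from -0.44 for CELF3 to 0.36 for MAP2. Their median was -0.05, beside -0.01 over all genes.

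**Figure D2:**
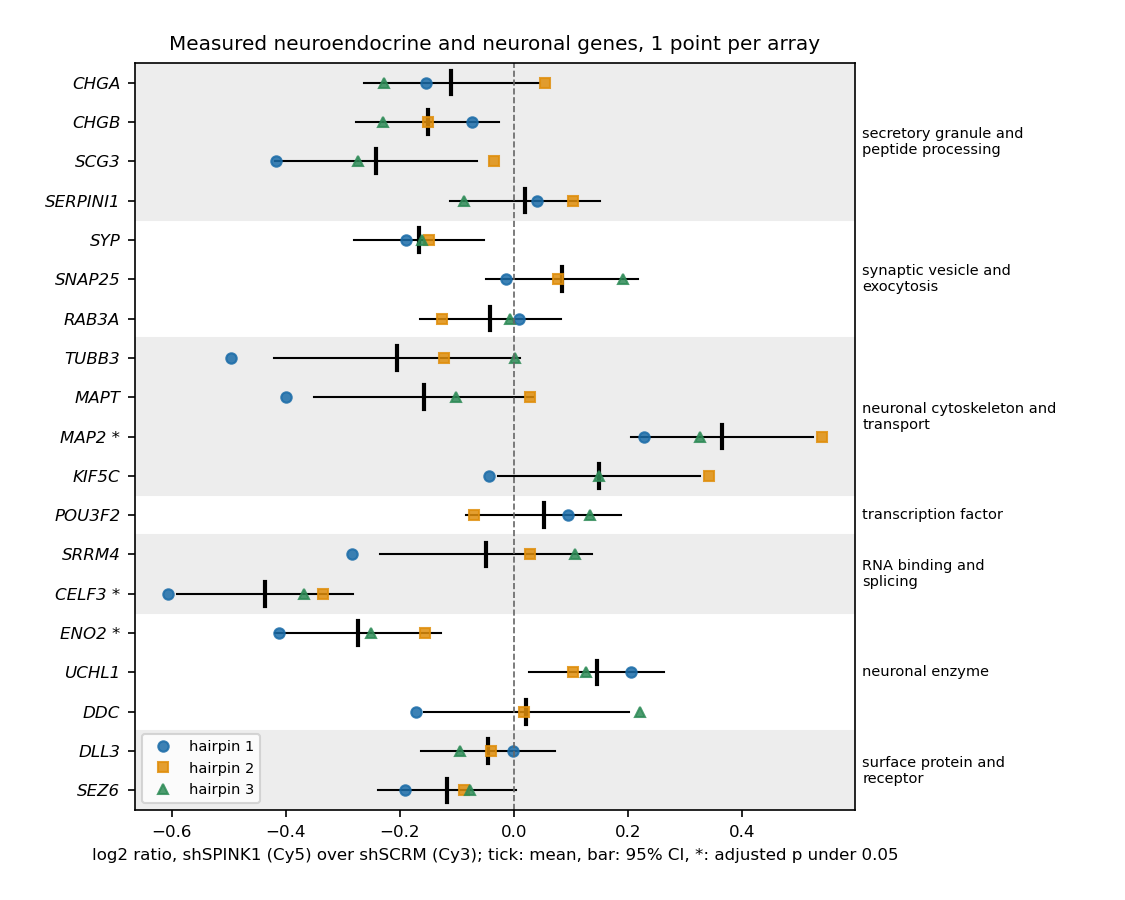
Log2 ratio of 22RV1-shSPINK1 over 22RV1-shSCRM for the 19 measured genes, grouped by role, with 1 point per hairpin array, a thick tick at the mean, a bar for the 95% confidence interval from limma and an asterisk at an adjusted p under 0.05. CELF3 and ENO2 lie left of 0 on every array and MAP2 right of 0, and the hairpin 1 points are often the leftmost.

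CHGA and CHGB encode chromogranins A and B, acidic proteins that drive granule formation, and SCG3 encodes secretogranin III, which holds chromogranin A at the granule membrane. CHGA was at -0.16, 0.05 and -0.23 with hairpins 1, 2 and 3. The values fell on both sides of 0, and the mean of -0.11 had a 95% confidence interval of -0.26 to 0.04 (adjusted p = 0.308, limma). CHGB was at -0.07, -0.15 and -0.23, below 0 on every array, with a mean of -0.15 that did not pass (adjusted p = 0.106, limma). SCG3 was at -0.42, -0.04 and -0.27, also below 0 on every array, with a mean of -0.24 (adjusted p = 0.0767, limma). Its mean depended on the arrays used. It was -0.15 without hairpin 1 (adjusted p = 0.164, limma), -0.34 without hairpin 2 (adjusted p = 0.0295, limma) and -0.23 without hairpin 3 (adjusted p = 0.256, limma).

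SERPINI1 encodes neuroserpin, a protease inhibitor released from neurons through regulated secretion, and was at 0.04, 0.10 and -0.09, a mean of 0.02 (adjusted p = 0.863, limma). The other 4 genes of this role were dim. SCG2 (secretogranin II) and SCG5 (the 7B2 chaperone of PCSK2) were well above background in Cy5 on 1 of 3 arrays each and in Cy3 on 0. The prohormone convertases PCSK1 and PCSK2, which release peptide hormones from their precursors, were well above background on no array in either dye.

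SYP encodes synaptophysin, a glycoprotein of the vesicle membrane. Its log2 ratio was -0.19, -0.15 and -0.16 with hairpins 1, 2 and 3, so the 3 hairpins differed by little and all lay below 0. The mean of -0.17 (95% confidence interval -0.28 to -0.05) had an unadjusted p of 0.00997 and an adjusted p of 0.0617 by limma, just outside the threshold over all genes. The probe passed the background filter but was close to background, with a Cy5 brightness of 34.7, 26.8 and 25.2 and a Cy3 brightness of 65.2, 54.1 and 53.6 over local backgrounds of about 16 and 20. The size of the ratio depended on how the background was treated. With an offset of 10 the mean was -0.37 and passed (adjusted p = 0.0260, limma), with no background correction it was -0.29 and passed (adjusted p = 0.0309, limma), and with the scanner software's own log ratio it was -0.67 and did not (adjusted p = 0.107, limma). With no filter on dim probes the mean stayed at -0.17 and passed (adjusted p = 0.0376, limma), with limma's standard error at 0.030 in place of 0.048. With hairpin 1, 2 or 3 left out, the mean was -0.15, -0.18 and -0.17. None of these passed (adjusted p = 0.104, 0.175 and 0.232, limma). The sign was negative under each of these settings. CHGB, whose probe was likewise close to background, went from -0.15 to -0.31 with an offset of 10 (adjusted p = 0.0593, limma) and to -0.67 with the scanner software's log ratio, and with no background correction it was -0.30 and passed (adjusted p = 0.0462, limma).

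The other vesicle genes that were measured lay near 0. SNAP25, a SNARE protein that drives fusion of vesicles with the plasma membrane, was at -0.01, 0.08 and 0.19, a mean of 0.08 (95% confidence interval -0.05 to 0.22). RAB3A, a small GTPase of secretory vesicles, was at 0.01, -0.13 and -0.01, a mean of -0.04 (95% confidence interval -0.17 to 0.08). SYT1, the calcium sensor of fast release, and SYN1, which tethers vesicles to actin, were dim. A probe of SYT1 passed in Cy5 on 1 array, and SYN1 passed on none.

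In the cytoskeleton group the measured genes did not share a direction. MAP2, which stabilizes microtubules in dendrites, was at 0.23, 0.54 and 0.33, above 0 on every array. The mean of 0.36 corresponds to 129% of the control level, with a 95% confidence interval of 0.20 to 0.52 on the log2 scale and an adjusted p of 0.0182 by limma. MAP2 did not pass without hairpin 2, with a mean of 0.28 (adjusted p = 0.0538, limma), or without hairpin 3, with a mean of 0.38 (adjusted p = 0.0742, limma). In those settings 2.55% and 1.02% of all genes were called higher. A further MAP2 probe, far upstream in the annotation, was dim and gave no level.

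KIF5C, a neuronal kinesin heavy chain, was at -0.04, 0.34 and 0.15, a mean of 0.15 that did not pass (adjusted p = 0.240, limma). KIF5C was at 0.24 and passed without hairpin 1 (adjusted p = 0.0297, limma), and was at 0.05 without hairpin 2. TUBB3, the neuronal βIII-tubulin, was at -0.50, -0.12 and 0.0021, a mean of -0.21 that did not pass (adjusted p = 0.186, limma). MAPT, which encodes tau, was at -0.40, 0.03 and -0.10, a mean of -0.16 (adjusted p = 0.246, limma). In TUBB3 and MAPT the lowest value came from hairpin 1, and the values of the other hairpins ran from -0.12 to 0.03. The second MAPT probe well above background was at 0.05, 0.09 and -0.18, a mean of -0.01, so the probes of this gene did not share the low hairpin 1 value. GAP43, a growth cone protein, was dim and passed on 1 array in each dye.

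Of the transcription factors, POU3F2 (BRN2), a POU-domain factor of neural progenitors, was at 0.09, -0.07 and 0.13, a mean of 0.05 with a 95% confidence interval of -0.08 to 0.19. INSM1, a zinc finger transcriptional repressor that acts in endocrine differentiation, the helix-loop-helix factor NEUROD1 and the forkhead factor FOXA2 were well above background on no array in either dye. MYCN, the N-Myc oncoprotein, was well above background in Cy5 on 2 arrays and in Cy3 on 0, which fell short of the requirement of 3 arrays in a dye. These data therefore hold a measured ratio for 1 of the 5 factors.

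The largest fall among the 19 measured genes was that of CELF3, an RNA-binding protein that regulates splicing in neurons. Its log2 ratio was -0.61, -0.33 and -0.37 with hairpins 1, 2 and 3, below 0 on every array and lowest with hairpin 1. The mean of -0.44 corresponds to 73.9% of the control level, with a 95% confidence interval of -0.59 to -0.28 on the log2 scale and an adjusted p of 0.0105 by limma. The probe had a Cy5 brightness of 139, 131 and 135 and a Cy3 brightness of 316, 263 and 282, well clear of the local background. CELF3 also passed with any of the arrays left out, with means of -0.49 to -0.35. The second CELF3 probe, whose sequence is printed above, was dim on each array and gave no level, so the fall rests on a single probe.

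SRRM4, which promotes inclusion of neural microexons and has been tied to NEPC, was at -0.28, 0.03 and 0.11. The mean of -0.05 did not pass (adjusted p = 0.724, limma), and its 95% confidence interval of -0.23 to 0.14 spans 0. The Hu proteins ELAVL3 and ELAVL4, which stabilize neuronal mRNAs, were dim, with ELAVL4 well above background in Cy5 on 1 array.

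ENO2, the neuron-specific enolase of glycolysis, was at -0.41, -0.16 and -0.25, below 0 on every array. The mean of -0.27 corresponds to 82.8% of the control level, with a 95% confidence interval of -0.42 to -0.13 on the log2 scale and an adjusted p of 0.0314 by limma. It did not pass without the array of hairpin 3 (-0.28, adjusted p = 0.119, limma), with an offset of 10 (-0.26, adjusted p = 0.0806, limma) or with no background correction (-0.25, adjusted p = 0.0741, limma), where the mean hardly moved.

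UCHL1 (PGP9.5), a neuronal deubiquitinating enzyme, was at 0.20, 0.10 and 0.13, above 0 on every array, with a mean of 0.15 that did not pass (adjusted p = 0.102, limma). With no background correction it was 0.25 and passed (adjusted p = 0.0486, limma). DDC, which makes dopamine and serotonin by decarboxylation, was at -0.17, 0.02 and 0.22, with hairpins on both sides of 0 and a mean of 0.02 (95% confidence interval -0.16 to 0.20). ENO2 and UCHL1, both long used as immunohistochemical neuroendocrine markers, thus had means of opposite sign.

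Among surface proteins, DLL3, an inhibitory Notch ligand, was at -0.0017, -0.04 and -0.09, a mean of -0.05 with a 95% confidence interval of -0.16 to 0.07. SEZ6, a transmembrane protein of neurons, was at -0.19, -0.09 and -0.08, below 0 on every array, with a mean of -0.12 that did not pass (adjusted p = 0.175, limma). NCAM1, the neural cell adhesion molecule, has 3 probes on the array, and their median brightness was 15.6 to 16.0 in Cy5 and 27.1 to 32.8 in Cy3, over local backgrounds of 14 to 15 and 19 to 20. OPRK1, the kappa opioid receptor, was likewise well above background on no array.

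Taking the 19 measured genes by their sign, 7 were below 0 on all 3 arrays (CHGB, SCG3, SYP, CELF3, ENO2, DLL3 and SEZ6), which is 36.8%, where 29.0% of all genes were. MAP2 and UCHL1, 10.5%, were above 0 on all 3, where 21.2% of all genes were. By hairpin, the median over the 19 was -0.16, -0.04 and -0.08, beside -0.02, -0.01 and -0.01 over all genes. Hairpin 1 gave the lowest of the 3 values for 12 of the 19 genes (63.2%), where it did so for 37.5% of all genes tested. These are descriptions without a test, since genes are not independent replicates. The array of hairpin 1 also had the highest share of spots well above background, and the part of that in the pattern was not tested.

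The normalization set the baseline of these values. When each array was centred on its median over all gene spots in place of loess, the median over all genes tested moved to -0.23. Under that centring 15 of the 19 genes were called lower and 0 higher by limma, where 60.6% of all genes were called lower, 3 passed the size limit, where 1965 of 17061 genes did, and 0 were higher at an unadjusted p under 0.05, where 0.750% of all genes were. The median of the 19 was -0.09 from that of all genes under centring and -0.04 under loess. Under centring MAP2 was 0.01 (adjusted p = 0.905, limma) against an all-gene median of -0.23, and CELF3 and ENO2 were at -0.74 and -0.62. SNAP25, KIF5C, POU3F2, UCHL1, DDC and SERPINI1, which were above 0 with loess, were below 0 with centring.

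**Figure D3:**
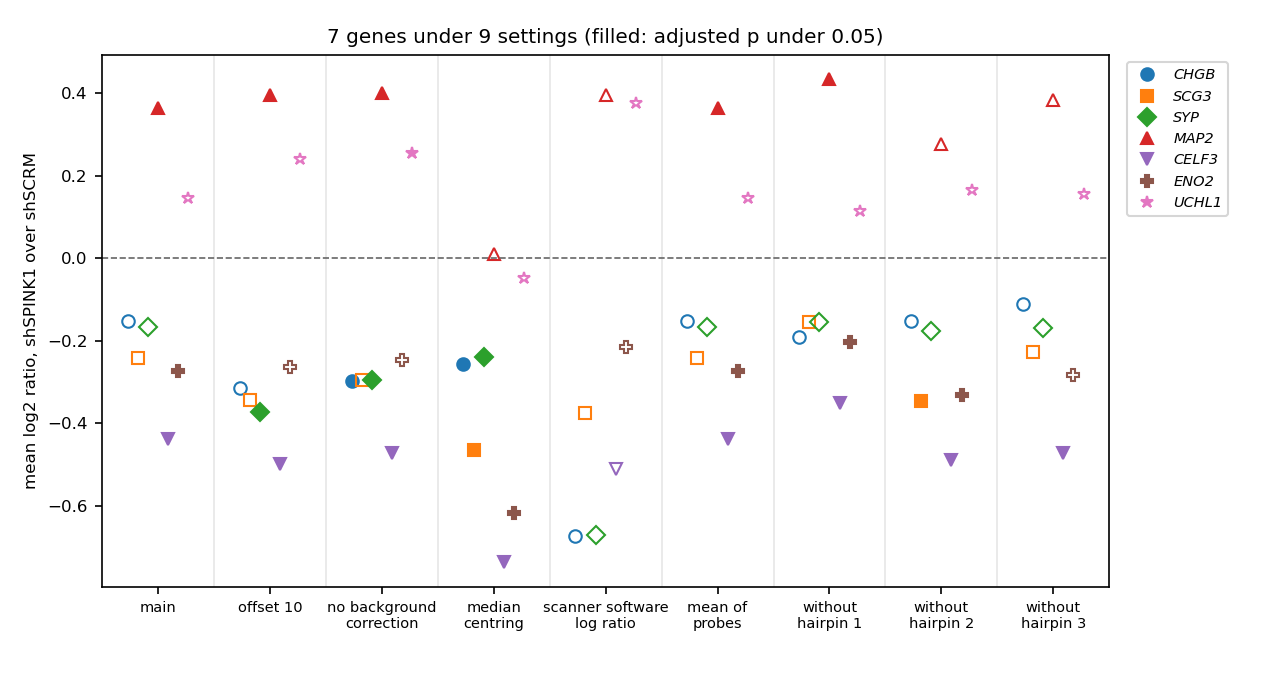
Mean log2 ratio of the 7 genes with an unadjusted p under 0.05 under 9 settings, where the scanner software log ratio is that of Feature Extraction and the last 3 leave out an array. Symbols are filled at an adjusted p under 0.05. SYP and CHGB spread most between settings, CELF3 is filled in all but the scanner software log ratio, and MAP2 drops to 0.01 with median centring.

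A broader list of 93 genes with the same roles gives the surroundings of the 34. Of these 49 were measured, and 6 were lower (12.2%, where 8.70% of all genes were) and 0 higher by limma at an adjusted p under 0.05. At an unadjusted p under 0.05, 12 were lower (24.5%, beside 18.4% of all genes) and 3 higher (6.12%, beside 11.3%). The median over the 49 was -0.06, beside -0.05 over the 19 and -0.01 over all genes. The 6 lower genes came from 4 roles, and 3 of them were among the 9 measured granule and peptide-processing genes, whose median was -0.07 and 3 of which (VGF, CALCA and ADCYAP1) had means of 0.09, 0.11 and 0.07 that did not pass.

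NPY, the neuropeptide Y precursor, was at -0.79, -0.35 and -0.38, a mean of -0.51 (adjusted p = 0.0156, limma), and was the only gene of this list with a mean beyond 0.5. CPE, carboxypeptidase E, which trims peptides after the convertases cut, was at -0.46, -0.55 and -0.25, a mean of -0.42 (adjusted p = 0.0118, limma). PTPRN2, a transmembrane protein of dense-core granules, was at -0.40, -0.52 and -0.08, a mean of -0.33 (adjusted p = 0.0440, limma). These 3 genes act in the granule alongside CHGA, CHGB and SCG3, which had means of -0.11, -0.15 and -0.24 and did not pass. SERPINI1, the remaining measured gene of this role among the 34, had a mean of 0.02 and did not pass either. A second PTPRN2 probe was at a mean of -0.05, and with the probes averaged the gene was at -0.19 and did not pass (adjusted p = 0.0854, limma). Without hairpin 2 PTPRN2 was at -0.24 and did not pass (adjusted p = 0.141, limma).

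STMN3, a stathmin that destabilizes microtubules, was at -0.47, -0.37 and -0.32, a mean of -0.38 (adjusted p = 0.00854, limma). SEZ6L2, a relative of SEZ6, was at -0.47, -0.28 and -0.39, a mean of -0.38 (adjusted p = 0.00944, limma), while SEZ6 itself did not pass. Without hairpin 3 SEZ6L2 kept a mean of -0.38 (adjusted p = 0.0566, limma). SRRM3, the relative of SRRM4 that also promotes neural microexons, was at -0.46, -0.31 and -0.10, a mean of -0.29 (adjusted p = 0.0416, limma), but its other kept probes were at -0.03 and -0.12 and their average with it did not pass (-0.15, adjusted p = 0.106). SRRM3 did not pass with any array left out, with means of -0.38 to -0.20. The largest means in the other direction were those of NOVA1, a neuronal splicing regulator, at 0.21 (adjusted p = 0.0840, limma) and DPYSL3, a growth cone protein, at 0.18 (adjusted p = 0.124, limma), and neither passed. Both were below 0 with median centring, at -0.13 and -0.17, and DPYSL3 was at 0.27 and passed without hairpin 1 (adjusted p = 0.0141, limma).

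Since REST acts on many of these genes through RE-1, the start regions of the 34 were searched for the left and right parts of that element. The search used the letters TTCAGCACC, followed after 0 to 10 bases by GGACAG, on both strands of the RefSeq windows (GRCh38.p14) from 250 bases before to 50 bases after each gene's start. Windows were held for 23 of the 34 genes. Both parts were found in SCG3 and SYN1, 2 of 23 genes, where 14 of 27305 genes (0.0513%) had them. The 2 parts are in capitals below.
SCG3, chr15:51681511-51681533, plus strand, from base 9 after the start: TTCAGCACCcacagggcGGACAG
SYN1, chrX:47620074-47620090, minus strand, 233 bases before the start: TTCAGCACCgcGGACAG
SCG3 was measured, with the mean of -0.24 given above, and SYN1 was well above background on no array. CELF3, ENO2, MAP2 and SYP had windows without the match, and CHGB and DLL3 had none to search. A match is a description of letters and does not show that REST was bound in these cells.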

How the data were processed

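The authors deposited the scanner output of 3 two-color arrays, with the intensity of each spot and of its local background per channel, not normalized, and a log10 ratio computed by Agilent's Feature Extraction after its own background and dye correction. They also deposited a table of log2 ratios per gene name. Of 10964 tested genes with 1 probe, 99.9% had a table value within 0.02 of the Feature Extraction ratio, so its direction was settled as Cy5 over Cy3. The intensities were processed in R 4.3.3 with limma 3.58.1: normexp with an offset of 50, outlier-flagged spots set aside, loess within each array with control spots at weight 0, spots averaged per probe. A probe was kept if well above background on all 3 arrays in either dye (21443 of 58201 probes), and the brightest kept probe stood for its gene. The mean log2 ratio was tested against 0 with limma, which leaves out the control's own spread. The p-values measure only spread between these 3 arrays, each of a different hairpin. For each gene, limma draws that spread toward a value pooled over all genes tested. Spots of 283 replicated kept probes had an SD of 0.0560 to 0.0593 within an array. Precision is limited by having 3 arrays.

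The 34 genes, the broader list, the markers and the tests were chosen with earlier results of these data known. All 34 are named, and of the broader list those called and the 2 largest means in each direction. Some genes of the marker list are not reported here. The limma fit was checked by a simulation of the shSPINK1 over shSCRM comparison. In it a log2 change of 1 was given to 200 of 17061 genes. The fit recovered 92.5% of them and called 1 unchanged gene. That change is larger in size than any mean of the 19 measured genes, which ran from -0.44 to 0.36. Recovery of such smaller changes was not tested. Figures were drawn with matplotlib 3.10.9. The alternatives were no background correction, an offset of 10, median centring, the Feature Extraction log ratio, the deposited table, no filter, a filter on both dyes, averaged probes and leaving out each array.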

Additional observations from a re-analysis of the deposited data

How the results depend on the processing

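SPINK1 kept its sign and its call under every alternative that was run. With the Feature Extraction log ratio and with the deposited table, limma called 0 of the 19 measured genes and 0 of the broader list in either direction. Of all genes it called 0.0176% lower and 0 higher. At an unadjusted p under 0.05, 3 of the 19 measured genes were lower and 2 higher under each. Beside them stood 2137 and 1954 of 17061 genes with the log ratio, and 2063 and 1774 of 17059 with the table. The median of the measured genes was -0.13 under both. With median centring 15 were lower, 0 higher and 3 past the size limit. Of all genes, 60.6% were then lower, and 1965 of 17061 were past the size limit. The median of the 19 was -0.32, beside -0.23 over all genes. Of the 49 measured genes of the broader list, 39 were lower under this centring, beside the same 60.6% of all genes. With no background correction 3 were lower (CHGB, SYP and CELF3, with ENO2 lost) and 2 higher (MAP2 and UCHL1), beside 6.04% and 4.92% of all genes. With no filter, where the dim genes were tested too, 3 were lower (SYP, CELF3 and ENO2) and 1 higher (MAP2). Of all genes, 3.33% and 1.85% were. Leaving out an array gave 1 to 3 lower and 0 to 2 higher genes, and 4 to 6 lower and 0 to 2 higher genes of the broader list. Of all genes, 1.69% to 11.4% were then lower and 1.02% to 7.32% higher. The fewest were called without hairpin 3, where CELF3 alone passed among the 19. Signs turned for some genes. With median centring the median over all genes was -0.23. There SERPINI1 was at -0.011, SNAP25 at -0.26, KIF5C at -0.038, POU3F2 at -0.24, UCHL1 at -0.047 and DDC at -0.33. Of these, SNAP25, POU3F2 and DDC were called lower by limma. RAB3A was at 0.00096 with no background correction, and SRRM4 at 0.022 with the Feature Extraction log ratio and 0.02 with the table. With an array left out, SERPINI1 ran from -0.024 to 0.071, RAB3A from -0.067 to 0.0011, SRRM4 from -0.13 to 0.068 and DDC from -0.078 to 0.12. The cause of these differences was not tested. The slide or scan as a block was not run, since all arrays shared them. No paired analysis was possible because replicate numbers occur in 1 group, beyond the pairing of shSPINK1 with shSCRM that each array's ratio already holds. Genes near background have ratios that the offset of 50 draws toward 0, so small differences in SYP, CHGB, DLL3 and SERPINI1 are those least well resolved.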
